A study of Mus musculus with 2 samples.

Results

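The genes described here are 28 genes of cholesterol synthesis and of its control by the SREBP transcription factors, out of 31053 genes in the deposited tables. They were listed by name and function, and all 28 had UMIs (unique molecular identifiers, each standing for 1 captured RNA molecule) in both libraries. By role, 17 code for enzymes from *Hmgcs1* to *Dhcr7* that lead through mevalonate to cholesterol, 2 for enzymes beside that path (*Acat2* and *Ggps1*), 5 for SREBP control (*Insig1*, *Insig2*, *Scap*, *Srebf1* and *Srebf2*), and 4 for the transport and storage of cholesterol (*Stard4*, *Soat1*, *Npc1* and *Npc2*). The study asked how adipose tissue macrophages (ATMs) respond to the first night of a high fat diet. Young adult male C57/BL6 mice (C57BL/6JOlaHsd in the methods of the study), for which the labels name no genetic change, were kept on control diet (CD) or given a high fat diet overnight (HFD). Epididymal fat was digested with enzymes, the macrophages were sorted as CD45+ Lin- Ly6C low or negative F4/80+ cells, and droplet-based 3′ scRNA-seq was performed. The cells of 3 mice were pooled into the CD library and those of 3 other mice into the HFD library, so each diet was measured in 1 library and no replicate check was possible.

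Cells make cholesterol from acetyl-CoA by a path that runs through mevalonate, isoprenoids and squalene, and then through lanosterol and a series of sterols. The SREBP proteins are held in the endoplasmic reticulum by the INSIG proteins while sterols are plentiful. When sterols run low, SCAP carries the SREBPs to the Golgi, where they are cut, and the released part enters the nucleus and switches on the genes of the path. Macrophages also take up cholesterol from lipoproteins and dead cells, release it from lysosomes through NPC1 and NPC2, store it as esters made by SOAT1, and export it, and oxysterols that activate the LXR receptors raise the export.

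SREBPs act at promoters together with NF-Y, a factor that binds the letters CCAAT, so the promoters of 5 members on which the results below turn are shown first. Sequences are from RefSeq on GRCm38.p6 and run 5′ to 3′ on the strand of the gene, from 250 bases before its start up to the base before the start or, where an exon of the same gene is annotated sooner, up to that exon. Capitals mark CCAAT on either strand (ATTGG is CCAAT read from the other strand) and, in *Hmgcs1* alone, the sterol regulatory element TCACNCCAC. *Hmgcs1*, which codes for the first of the 17 enzymes, is given for chr13:119690101-119690350 on the plus strand, *Mvd*, which makes the first isoprenoid, for chr8:122443423-122443672 on the minus strand, *Ebp*, a late sterol isomerase, for chrX:8193513-8193762 on the minus strand, *Insig1* for chr5:28071162-28071362 on the plus strand and *Soat1* for chr1:156474332-156474578 on the minus strand.
Hmgcs1: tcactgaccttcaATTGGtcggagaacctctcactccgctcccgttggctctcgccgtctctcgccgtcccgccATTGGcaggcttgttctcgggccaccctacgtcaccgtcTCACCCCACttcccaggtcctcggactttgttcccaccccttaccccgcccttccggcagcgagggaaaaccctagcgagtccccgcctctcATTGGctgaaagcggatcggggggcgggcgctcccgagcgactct
Mvd: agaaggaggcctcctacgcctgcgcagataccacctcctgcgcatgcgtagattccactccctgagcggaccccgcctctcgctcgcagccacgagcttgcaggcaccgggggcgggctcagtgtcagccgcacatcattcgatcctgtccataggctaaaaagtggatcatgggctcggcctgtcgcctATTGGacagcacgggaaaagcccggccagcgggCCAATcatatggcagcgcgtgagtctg
Ebp: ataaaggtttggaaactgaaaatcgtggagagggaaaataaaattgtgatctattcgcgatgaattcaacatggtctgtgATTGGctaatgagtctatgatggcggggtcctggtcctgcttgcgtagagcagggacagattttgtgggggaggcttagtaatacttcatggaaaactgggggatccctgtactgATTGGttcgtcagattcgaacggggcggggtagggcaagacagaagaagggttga
Insig1: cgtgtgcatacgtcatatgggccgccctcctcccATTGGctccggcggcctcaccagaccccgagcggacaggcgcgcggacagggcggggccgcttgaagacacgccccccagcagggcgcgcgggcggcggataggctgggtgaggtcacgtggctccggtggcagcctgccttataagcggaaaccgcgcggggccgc
Soat1: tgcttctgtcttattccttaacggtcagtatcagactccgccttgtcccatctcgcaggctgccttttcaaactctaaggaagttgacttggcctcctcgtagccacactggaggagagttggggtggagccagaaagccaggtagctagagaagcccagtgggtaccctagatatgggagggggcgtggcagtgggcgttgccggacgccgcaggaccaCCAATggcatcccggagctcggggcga

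The TCACNCCAC element in the *Hmgcs1* promoter began 137 bases before the start, between CCAAT boxes that began 176 and 45 bases before it. In *Mvd* the CCAAT boxes began 60 and 27 bases before the start, in *Ebp* 170 and 55, in *Insig1* 216 and in *Soat1* 30. Of the 28 members, 23 had an entry in the table of promoter windows (250 bases before to 50 after each start), and at least 1 window of each of the 14 matched synthesis enzymes held CCAAT, on either strand. Counted by window, 22 of the 31 windows of members held CCAAT, against 37.4% of all 32851 windows. TCACNCCAC was found in 1.24% of all windows and among the members only in that of *Hmgcs1*. Its core CACNCCAC, which lies inside it, was found in 6.24% of all windows and in those of *Hmgcs1*, *Acat2* and *Insig1*. The GC box GGGCGG, to which SP1 binds, was found in 35.7% of all windows and in 25 of the 31 windows of members. A match is a match of letters and does not show that a factor binds there.

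Cells with 200 to 3500 genes and at most 10% mitochondrial UMIs were kept, which left 2364 of the 4459 barcodes in CD and 2021 of the 3163 in HFD. The kept cells held 12284010 UMIs in CD and 8086475 in HFD, with a median of 4490.5 UMIs per cell in CD and 2792 in HFD. Levels are UMIs of a gene summed over cells and divided by all UMIs of those cells, as CPM (counts for every 1e+06 UMIs). They are not divided by gene length, so levels are compared between groups and not between genes. Ratios are log2 ratios of CPM, and the ranges given after them in parentheses are 95% exact binomial intervals, which cover counting error only and not the spread between mice. No test between diets was run, because cells from 1 pool are no replicates of a diet: what is compared is 1 pool with another. *Lyve1* is known as a marker of resident, perivascular ATMs and *Lyz1* as one of monocyte-derived cells, and 2 gates were read from them. Lyve1+ cells had at least 1 UMI of *Lyve1* and under 10 of *Lyz1*, and Lyz1-high cells had at least 10 UMIs of *Lyz1* and none of *Lyve1*. There were 1049 Lyve1+ cells in CD and 361 in HFD, and 432 and 618 Lyz1-high cells. Median depth differed between the gates, at 3800 UMIs in the Lyve1+ cells of CD, 2064 in those of HFD, 7923.5 in the Lyz1-high cells of CD and 6438 in those of HFD.

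Markers that the gates did not use went with their names. The sum of 8 resident markers (*Folr2*, *Timd4*, *Cd163*, *Fcna*, *Gas6*, *Selenop*, *F13a1* and *Mrc1*) was 2.88 log2 higher in Lyve1+ than in Lyz1-high cells of CD and 3.14 higher in HFD, and *Ear2*, a marker of the monocyte-derived cells, was at 98.4 against 1842 CPM in CD and at 363 against 2549 CPM in HFD. All 5 macrophage markers were detected in both gates of both libraries. Marker sums of endothelial, peritoneal macrophage, adipocyte, mesothelial and stromal, and lymphocyte and neutrophil cells lay between 0.543 and 17.4 CPM in the gates, with *Msln*, *Upk3b* and *Pdgfra* at 0. In all kept cells the mesothelial and stromal markers summed to 64.8 CPM in CD and 3.83 CPM in HFD. The lymphocyte and neutrophil markers were at 8.55 CPM in CD and 1.36 CPM in HFD, and the peritoneal macrophage markers at 10.3 and 18.8 CPM. Adipocyte markers were at 13.4 and 8.41 CPM and endothelial markers at 8.95 and 8.29 CPM. The 11 heat shock and dissociation genes summed to 15004 CPM in CD and 14889 CPM in HFD. Among them *Hspa1a* stood at 361 CPM in CD and 591 CPM in HFD, and its log2 ratio of HFD over CD was 1.21 in Lyve1+ and 0.93 in Lyz1-high cells. The sum of the 11 genes had ratios of 0.18 (0.16 to 0.20) and 0.14 (0.12 to 0.16) in these gates. That sum was 0.78 log2 higher in Lyve1+ than in Lyz1-high cells of CD and 0.83 higher in HFD. The part of depth, of these markers and of the heat shock and dissociation genes in the differences below was not tested. Values in cells of like depth and in cells with no *Hspa1a* UMI are given where they bear on a result. Asking for no UMI of *Hspa1a* also favours cells with few UMIs, so those cells were not matched for depth. The libraries shared 14 barcodes, 7 of them in kept cells of each.

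Over all kept cells, the summed level of the 28 genes differed between the libraries by no more than counting error, and 1 gene, *Soat1*, was higher after HFD by 1.5-fold or more. The sum was 1276.5 CPM in CD and 1298 CPM in HFD, a log2 ratio of 0.02 (-0.01 to 0.06). *Npc2*, which codes for the soluble cholesterol carrier of the lysosome, supplied 60.5% of the UMIs of this sum in CD and 61.1% in HFD, so the sum says little of the rest. The 17 synthesis enzymes together were at 263 CPM in CD and 245 CPM in HFD, a log2 ratio of -0.10 (-0.18 to -0.02). In cells with 3000 to 8000 UMIs this ratio was 0.10, in the other direction.

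**Figure D1:**
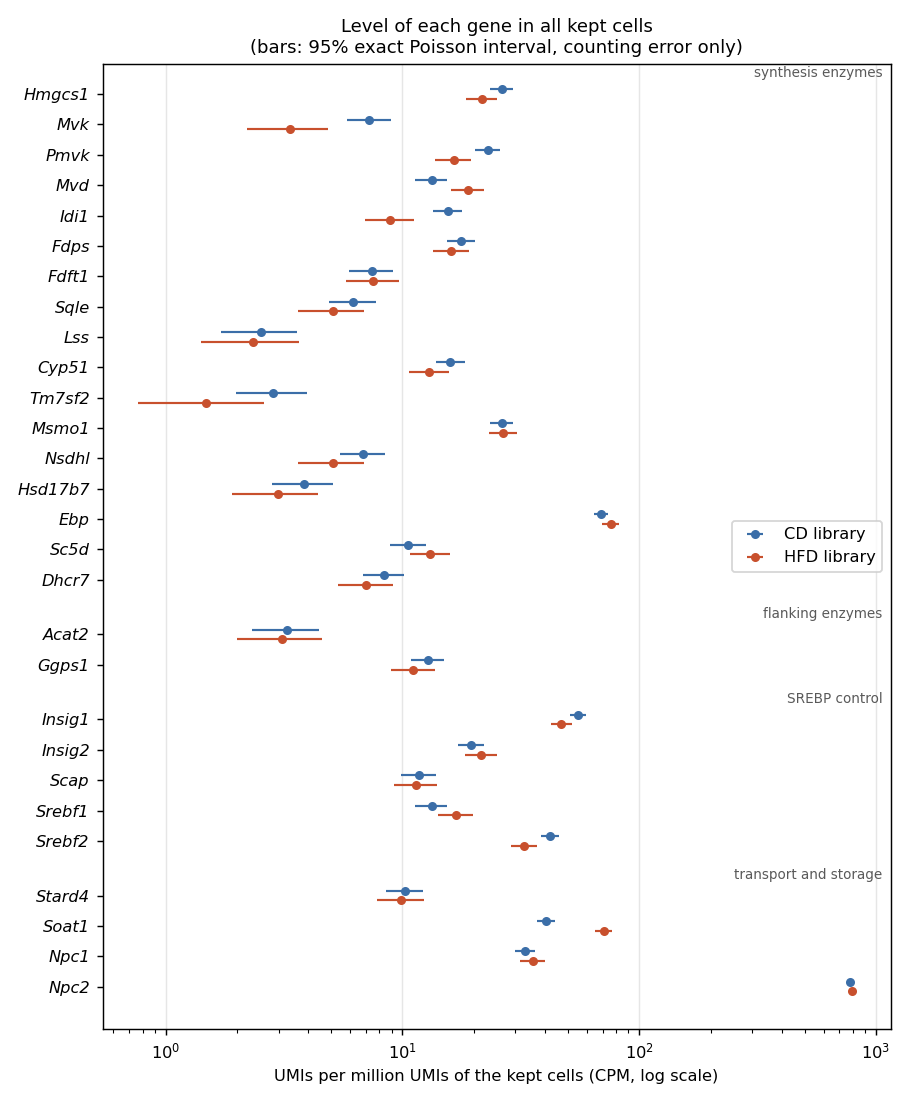
Level of each of the 28 genes in all kept cells of the CD and HFD libraries, in CPM on a log axis, grouped by role; bars are 95% exact Poisson intervals for counting error. *Soat1* was at 40.4 CPM in CD and 70.9 CPM in HFD with intervals apart, while most other genes lay within 1.5-fold of each other.

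With a fold of 1.5 as the limit, 1 of the 28 genes was higher after HFD, where 6.28% of all 11170 genes with at least 20 UMIs were, and 3 were lower (*Mvk*, *Idi1* and *Tm7sf2*), where 11.9% of all genes were. The median log2 ratio of the members was -0.12, that of the 17 synthesis enzymes -0.28, and that of all genes -0.02. The early, mevalonate part of the path (the 6 genes from *Hmgcs1* to *Fdps*) and the 11 sterol genes after it were also summed apart. The mevalonate part was at 103 CPM in CD and 85.3 CPM in HFD (log2 ratio -0.27, -0.41 to -0.14) and the sterol part at 159.6 and 160.1 CPM (0.01, -0.10 to 0.11). Within the mevalonate part, the kinase gene *Mvk* was at 7.25 and 3.34 CPM, the next kinase gene *Pmvk* at 22.9 and 16.4 CPM, and *Idi1*, which interconverts the isoprenoid units, at 15.5 and 8.90 CPM. The log2 ratios of *Mvk*, *Pmvk* and *Idi1* were -1.12, -0.48 and -0.80, and in cells of 3000 to 8000 UMIs -0.33, -0.37 and -0.27. With no *Hspa1a* UMI, *Pmvk* was at -0.92 and *Idi1* at -0.94. *Mvd*, which codes for the decarboxylase between *Pmvk* and *Idi1*, was higher in HFD instead, at 13.3 CPM in CD and 18.9 CPM in HFD (0.51, 0.18 to 0.84). This ratio was 0.17 in cells with no *Hspa1a* UMI and 1.18 in cells of 3000 to 8000 UMIs. Within each gate, and in cells of both gates or of neither, the interval of *Mvd* held 0. *Tm7sf2* had 35 UMIs in CD and 12 in HFD, and its interval held 0 (-0.94, -2.02 to 0.04). The ratio of *Hmgcs1* was -0.28 (-0.55 to -0.01). The remaining enzymes *Fdps*, *Fdft1*, *Sqle*, *Lss*, *Cyp51*, *Msmo1*, *Nsdhl*, *Hsd17b7*, *Ebp*, *Sc5d*, *Dhcr7*, *Acat2* and *Ggps1* had log2 ratios between -0.43 and 0.31, and the interval of each held 0. *Acat2* has a near-identical neighbour in the mouse genome, so its counts are uncertain.

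The mix of cells differed between the libraries, with 44.4% of kept cells in the Lyve1+ gate in CD and 17.9% in HFD, and 18.3% and 30.6% in the Lyz1-high gate, so the diets were also compared within each gate. The gates did not hold the mix fixed: HFD over CD, the resident markers had a log2 ratio of -0.44 in Lyve1+ and -0.69 in Lyz1-high cells, *Folr2* -0.997 and -1.80, and the sum of 5 markers of monocyte-derived cells (*Ear2*, *Ccr2*, *Fn1*, *Plac8* and *Cd52*) 0.68 and -0.06. The part of these shifts in the ratios below was not tested.

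In Lyz1-high cells the synthesis enzymes as a group were lower after HFD. Their sum was 317 CPM (1166 UMIs) in CD and 262 CPM (1082 UMIs) in HFD, a log2 ratio of -0.28 (-0.40 to -0.16). Of the 15 enzymes with at least 20 UMIs, 6 were lower by 1.5-fold or more (*Hmgcs1*, *Mvk*, *Idi1*, *Sqle*, *Cyp51* and *Dhcr7*) and 0 were higher. Over all members it was 6 of 26 lower and 1 higher, beside 7.09% lower and 8.42% higher among all 9345 genes with as many UMIs. The 6 became 2 without the 5% of cells with the most UMIs and 10 at a mitochondrial limit of 5%, and the share of all genes under these settings is not given. The median log2 ratio was -0.55 for the enzymes and 0.01 for all genes. *Idi1* (chromosome 13, 8885501 to 8892451, plus strand, GRCm38) was at 19.6 CPM (72 UMIs) in CD and 7.49 CPM (31 UMIs) in HFD, a log2 ratio of -1.38 (-2.04 to -0.76). *Cyp51* (chromosome 5, 4081145 to 4104746, minus strand), the lanosterol demethylase, was at 26.1 CPM (96 UMIs) and 14.5 CPM (60 UMIs), a ratio of -0.85 (-1.34 to -0.37). *Hmgcs1* (chromosome 13, 119690379 to 119708260, plus strand), whose promoter carries the element shown above, was at 33.7 CPM (124 UMIs) and 21.3 CPM (88 UMIs), a ratio of -0.66 (-1.07 to -0.26). *Pmvk* was at 23.4 and 15.7 CPM, a ratio of -0.57 (-1.06 to -0.09). The ratios of *Mvk* (20 and 12 UMIs), *Sqle* (33 and 24 UMIs, squalene epoxidase) and *Dhcr7* (42 and 31 UMIs, the last reductase of the path) were -0.91, -0.63 and -0.61, and their intervals held 0.

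*Ebp* (chromosome X, 8185329 to 8193512, minus strand) made up 26.2% of the UMIs of the enzyme sum in CD and 30.9% in HFD, and did not share this difference. In Lyz1-high cells it was at 74.2 CPM in CD and 85.8 CPM in HFD, a log2 ratio of 0.21 (-0.02 to 0.44). Without it the other 16 enzymes were at 243 and 176 CPM, a ratio of -0.47 (-0.61 to -0.32). *Mvd* (0.07), *Msmo1* (-0.09) and *Sc5d* (-0.02) were also near 0. Among Lyz1-high cells of 3000 to 8000 UMIs (201 in CD and 325 in HFD) the enzyme sum had a ratio of -0.14, *Hmgcs1* -0.14, *Cyp51* -0.72 and *Idi1* -1.06. In Lyz1-high cells with no UMI of *Hspa1a* (227 and 211 cells) the sum was at -0.11, *Hmgcs1* at -0.13, *Cyp51* at -0.62 and *Idi1* at -1.26.

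Of the genes of SREBP control, *Srebf2*, which codes for the SREBP that drives the cholesterol genes, was lower in Lyz1-high cells after HFD, while *Srebf1*, whose products mainly drive fatty acid synthesis, was at like levels in these cells. *Srebf2* (chromosome 15, 82147181 to 82205379, plus strand) was at 54.6 CPM (201 UMIs) in CD and 36.7 CPM (152 UMIs) in HFD, a log2 ratio of -0.57 (-0.89 to -0.26), and at -0.73 in cells of 3000 to 8000 UMIs and -0.74 in cells with no *Hspa1a* UMI. *Srebf1* was at 16.3 and 16.2 CPM, a ratio of -0.01 (-0.53 to 0.52). *Insig1*, itself a target of SREBP, was at 58.7 CPM (216 UMIs) in CD and 40.8 CPM (169 UMIs) in HFD, a ratio of -0.52 (-0.82 to -0.23) that turned to 0.14 in cells with no *Hspa1a* UMI. *Insig2* (0.24, -0.24 to 0.73) and *Scap* (-0.23, -0.84 to 0.38) had intervals that held 0. Over all kept cells *Srebf1* was higher in HFD, at 13.3 and 16.8 CPM (0.34, 0.0028 to 0.68). *Srebf2* (-0.36, -0.58 to -0.14) and *Insig1* (-0.23, -0.42 to -0.05) were lower over all kept cells. The ratio of *Srebf1* was 0.51 (-0.47 to 1.39) in Lyve1+ cells and 0.60 (-0.04 to 1.25) in cells of neither gate.

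**Figure D2:**
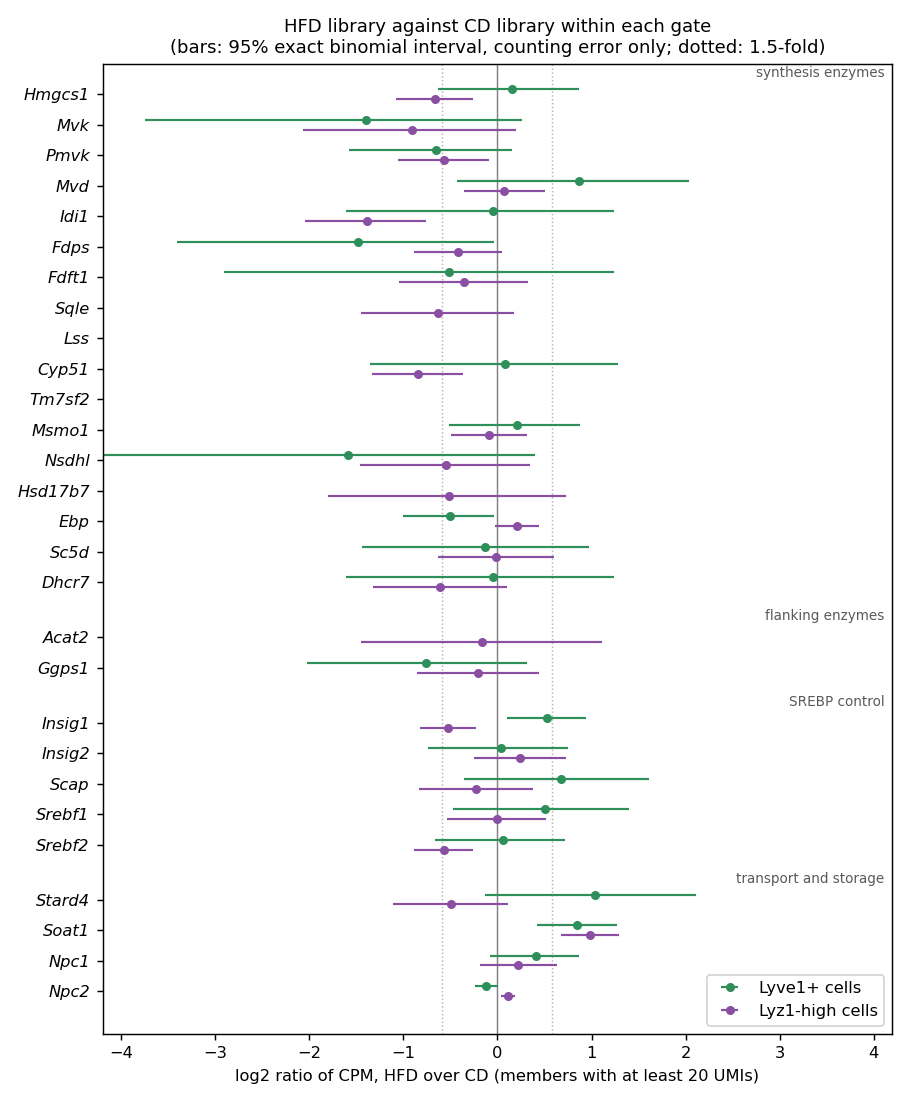
Log2 ratio of CPM, HFD over CD, of each member with at least 20 UMIs in the 2 groups compared, in Lyve1+ and in Lyz1-high cells; bars are 95% exact binomial intervals (that of *Nsdhl* in Lyve1+ cells runs off the axis) and dotted lines mark 1.5-fold. In Lyz1-high cells most enzymes lie left of 0, *Soat1* lies right of 0 in both gates, and *Insig1* lies on opposite sides of 0 in the 2 gates.

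*Soat1* (chromosome 1, 156424525 to 156474331, minus strand), which codes for the enzyme that esterifies cholesterol for storage in droplets, was higher after HFD in each class of cell. In Lyz1-high cells it was at 34.5 CPM (127 UMIs) in CD and 68.2 CPM (282 UMIs) in HFD, a log2 ratio of 0.98 (0.67 to 1.30). In Lyve1+ cells it was at 39.9 CPM (171 UMIs) and 71.8 CPM (66 UMIs), a ratio of 0.85 (0.42 to 1.27). Cells of neither gate had 47.6 and 73.9 CPM (0.63, 0.32 to 0.95), and cells that met both gates 40.7 and 76.4 CPM (0.91, 0.23 to 1.58). In each class the level in HFD was thus above that in CD, and the classes ran from 34.5 to 47.6 CPM in CD and from 68.2 to 76.4 CPM in HFD. Across the alternatives tried, the ratio over all cells stayed between 0.78 and 0.86.

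Of the other transport genes, *Npc2* was at 749 CPM in the Lyz1-high cells of CD and 808 CPM in those of HFD (0.11, 0.04 to 0.18), and at 798 and 735 CPM in Lyve1+ cells (-0.12, -0.24 to 0.0012). *Npc1*, which codes for the membrane protein that takes cholesterol over from NPC2, had ratios of 0.22 (-0.19 to 0.63) and 0.41 (-0.08 to 0.87) in the 2 gates. *Stard4*, which codes for a cytosolic sterol carrier, was at 14.7 and 10.4 CPM in Lyz1-high cells (-0.50, -1.11 to 0.11) and at 5.83 and 12 CPM (25 and 11 UMIs) in Lyve1+ cells (1.04, -0.13 to 2.11).

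In Lyve1+ cells the counts were smaller, since the HFD library held 361 such cells, and the intervals were wider. With at least 20 UMIs, 23 members were left, of which 4 were higher by 1.5-fold (*Soat1*, *Mvd*, *Scap* and *Stard4*), beside 13% of all 9341 genes, and 5 lower (*Mvk*, *Pmvk*, *Fdps*, *Nsdhl* and *Ggps1*), beside 11.6%. Of the members so counted, all but *Soat1* and *Fdps* had intervals that held 0, and *Mvk* and *Nsdhl* had 3 and 2 UMIs in HFD. The median log2 ratio of the members was 0.04 and that of all genes 0.05. The enzyme sum was 208 CPM (894 UMIs) in CD and 176 CPM (162 UMIs) in HFD, a ratio of -0.24 (-0.49 to 0.0010), and it was at 0.05 where the gate asked for 2 UMIs of *Lyve1* and at -0.73 in cells with no *Hspa1a* UMI (355 in CD and 105 in HFD). *Ebp* was at 66.4 CPM (285 UMIs) and 46.8 CPM (43 UMIs), a ratio of -0.51 (-1.0 to -0.04), and *Fdps* at 12.1 CPM (52 UMIs) and 4.35 CPM (4 UMIs), a ratio of -1.48 (-3.41 to -0.04) that rests on those 4 UMIs. *Hmgcs1* (0.15), *Idi1* (-0.05), *Cyp51* (0.08) and *Srebf2* (0.06) were near 0 with wide intervals, from -0.63 to 0.87 in *Hmgcs1* and from -1.61 to 1.24 in *Idi1*.

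*Insig1* (chromosome 5, 28071363 to 28078662, plus strand) differed between the gates in how it went with diet. In Lyve1+ cells it was at 48.3 CPM (207 UMIs) in CD and 69.6 CPM (64 UMIs) in HFD, a log2 ratio of 0.53 (0.10 to 0.94), whereas in Lyz1-high cells it was lower in HFD, as given above. The difference of these ratios, Lyve1+ minus Lyz1-high, was 1.05 (0.55 to 1.55). In Lyve1+ cells *Insig1* supplied 64 of the 134 UMIs that the 5 genes of SREBP control had in HFD, and 207 of 485 in CD. The intervals of *Insig2*, *Scap*, *Srebf1* and *Srebf2* for HFD over CD held 0 in these cells. For the sum of the 5 the ratios were 0.37 (0.08 to 0.65) in Lyve1+ and -0.35 (-0.52 to -0.18) in Lyz1-high cells, which differ by 0.72 (0.39 to 1.04). For *Hmgcs1* the same difference was 0.82 (0.0093 to 1.62), for *Ebp* -0.72 (-1.23 to -0.20), for *Srebf2* 0.63 (-0.09 to 1.35), for *Soat1* -0.13 (-0.64 to 0.38), and for the 17 enzymes as a sum 0.03 (-0.23 to 0.30). Without *Ebp* the enzyme sum differed by 0.33 (0.02 to 0.65), and the 27 members without *Npc2* by 0.31 (0.13 to 0.48). *Stard4* (1.54, 0.36 to 2.71), *Sqle* (2.37, 0.54 to 4.19) and *Hsd17b7* (2.15, 0.28 to 4.03) also had intervals above 0, on 11, 5 and 6 UMIs in the Lyve1+ cells of HFD. In cells with no *Hspa1a* UMI the ratio of *Insig1* was 0.34 in Lyve1+ cells and 0.14 in Lyz1-high cells, so the opposite directions were not seen there. Those were 355 CD and 105 HFD Lyve1+ cells and 227 and 211 Lyz1-high cells, and no interval is given for these ratios.

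Within each library, Lyve1+ cells had less RNA of the synthesis enzymes, per UMI of the cell, than Lyz1-high cells. The enzyme sum was 208 against 317 CPM in CD, a log2 ratio of Lyve1+ over Lyz1-high of -0.60 (-0.73 to -0.48), and 176 against 262 CPM in HFD, a ratio of -0.57 (-0.82 to -0.33). Without *Ebp* the ratios were -0.77 (-0.92 to -0.62) and -0.44 (-0.73 to -0.16). In CD, 13 of 27 members with at least 20 UMIs were lower in Lyve1+ cells by 1.5-fold or more, beside 11.6% of all 9863 genes, and 3 were higher (*Mvk*, *Lss* and *Npc1*), beside 31.8%. In HFD, 6 of 23 were lower (*Mvd*, *Fdps*, *Fdft1*, *Cyp51*, *Nsdhl* and *Ebp*), beside 13.7% of all 8869 genes, and 2 were higher (*Insig1* and *Npc1*), beside 31.5%. The intervals of *Fdft1*, *Cyp51* and *Nsdhl* in HFD held 0, on 3, 7 and 2 Lyve1+ UMIs. In CD those of *Scap*, *Hsd17b7*, *Mvk* and *Lss* held 0. The median ratio of the enzymes was -0.77 in CD and -0.47 in HFD, whereas that of all genes with at least 20 UMIs was 0.26 and 0.24. Under scaling by the median ratio of genes instead of by all UMIs, ratios of this comparison were lower by 0.10 in CD and by 0.19 in HFD. *Hspa1a* also differed between the gates, at 523 CPM in Lyve1+ and 179.9 CPM in Lyz1-high cells of CD and at 1212 and 342 CPM in HFD, and in cells with no *Hspa1a* UMI the enzyme sum had ratios of -0.53 in CD and -1.15 in HFD.

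Among single enzymes of CD, *Sqle* was at 1.63 CPM (7 UMIs) in Lyve1+ and 8.97 CPM (33 UMIs) in Lyz1-high cells, a log2 ratio of -2.46 (-3.88 to -1.26), and *Mvd* (chromosome 8, 122433601 to 122443422, minus strand) was at 5.36 CPM (23 UMIs) and 23.6 CPM (87 UMIs), a ratio of -2.14 (-2.87 to -1.46). *Cyp51* was at 7.23 and 26.1 CPM (-1.85, -2.49 to -1.25) and *Idi1* at 6.76 and 19.6 CPM (-1.53, -2.21 to -0.89). The farnesyl enzymes *Fdft1* (-1.26) and *Fdps* (-0.98), and *Hmgcs1* (-0.78) and *Dhcr7* (-0.76), were lower as well, each with an interval below 0. Not every step shared this: *Pmvk* (0.04, -0.39 to 0.47), *Ebp* (-0.16, -0.40 to 0.09), *Msmo1* (-0.35, -0.78 to 0.07), *Nsdhl* (-0.11), *Sc5d* (-0.36), *Tm7sf2* (-0.37) and *Hsd17b7* (-0.86) had intervals that held 0, as did *Mvk* (0.67, -0.16 to 1.53) and *Lss* (0.78, -0.63 to 2.33). In CD cells with no *Hspa1a* UMI the ratios of *Mvd* (-1.32) and *Hmgcs1* (-0.26) were smaller in size and outside their main intervals. The main interval of *Hmgcs1* had its upper end at -0.37. *Idi1* (-1.004) was smaller in size but within its interval, while *Sqle* (-3.66), *Fdft1* (-1.56) and *Fdps* (-1.14) were larger in size. In HFD the ratio of *Mvd* was -1.35 (-2.52 to -0.37) and that of *Fdps* -2.04 (-3.95 to -0.62) on 4 Lyve1+ UMIs. The ratio of *Ebp* in HFD was -0.88 (-1.37 to -0.42), while *Hmgcs1* was at 21.8 and 21.3 CPM (0.03, -0.75 to 0.75). For *Sqle* (-0.09), *Idi1* (-0.20) and *Dhcr7* (-0.20) the intervals in HFD held 0, on 5, 6 and 6 Lyve1+ UMIs.

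**Figure D3:**
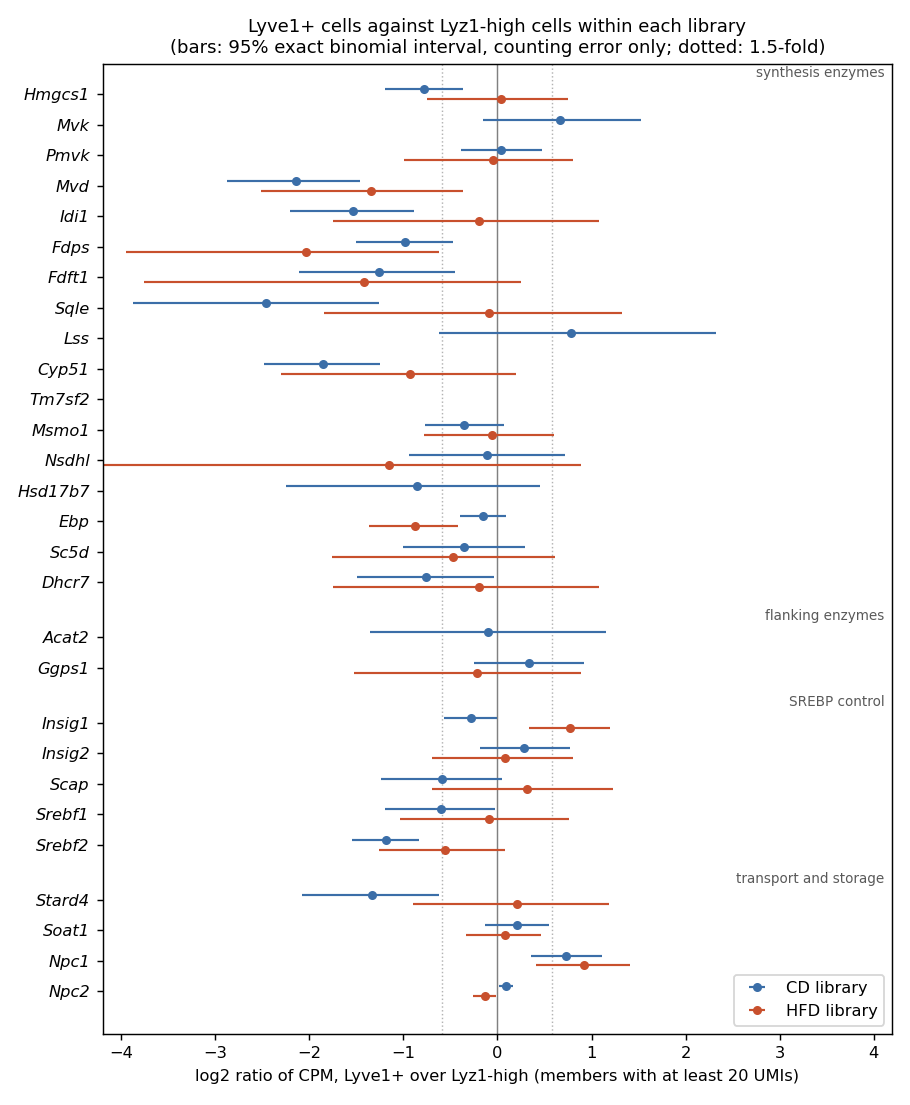
Log2 ratio of CPM, Lyve1+ over Lyz1-high cells, of each member with at least 20 UMIs in the 2 groups, in the CD and the HFD library; bars are 95% exact binomial intervals (that of *Nsdhl* in HFD runs off the axis) and dotted lines mark 1.5-fold. *Sqle*, *Mvd*, *Cyp51* and *Idi1* lie furthest left in CD, *Npc1* lies right of 0 in both libraries, and *Insig1* lies left of 0 in CD and right of it in HFD.

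Genes of control and transport fell on both sides. In CD, *Srebf2* was at 24.0 CPM (103 UMIs) in Lyve1+ and 54.6 CPM (201 UMIs) in Lyz1-high cells, a ratio of -1.19 (-1.54 to -0.84), *Srebf1* at 10.7 and 16.3 CPM (-0.60, -1.19 to -0.03), and *Stard4* at 5.83 and 14.7 CPM (-1.33, -2.08 to -0.62). In HFD the intervals of *Srebf2* (-0.55, -1.25 to 0.08), *Srebf1* (-0.09, -1.03 to 0.76) and *Stard4* (0.20, -0.90 to 1.18) held 0. *Npc1* was higher in Lyve1+ cells of both libraries, at 41.0 CPM in Lyve1+ and 24.7 CPM in Lyz1-high cells of CD (0.73, 0.36 to 1.11) and at 54.4 and 28.8 CPM in HFD (0.92, 0.41 to 1.41). *Insig1* was slightly lower in Lyve1+ cells of CD (-0.28, -0.56 to -0.00069) and higher in those of HFD (0.77, 0.33 to 1.19). In cells with no *Hspa1a* UMI these ratios were -0.07 and 0.13. *Soat1* was at like levels in the gates, with ratios of 0.21 (-0.13 to 0.55) in CD and 0.08 (-0.33 to 0.47) in HFD. *Npc2* had ratios of 0.09 (0.02 to 0.17) in CD and -0.14 (-0.26 to -0.02) in HFD, and that in CD turned to -0.01 under median ratio scaling.

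Depth is tied to the gates, so the enzyme sum was also read in bins of depth. Among cells of 3000 to 8000 UMIs in CD it was 206 CPM (190.2 to 223, exact Poisson) in 655 Lyve1+ cells and 296 CPM (266 to 329) in 201 Lyz1-high cells. In HFD it was 185 CPM (145 to 232) in 92 Lyve1+ cells and 269 CPM (245 to 294) in 325 Lyz1-high cells. The ratios between gates in this bin were thus -0.52 in CD and -0.54 in HFD, beside -0.60 and -0.57 over all depths. Under 3000 UMIs the sum in CD was 196 CPM (166 to 230) in 350 Lyve1+ cells. It was 538 CPM (324 to 840) in 16 Lyz1-high cells, on 19 UMIs of the enzymes. For HFD that bin had 145.5 CPM (113 to 185) in 262 Lyve1+ cells and 258 CPM (188 to 346) in 84 Lyz1-high cells. At 8000 UMIs or more, the few Lyve1+ cells were at 249 CPM (204 to 302) in 44 CD cells and, above the Lyz1-high cells, at 335 CPM (209.9 to 507) in 7 HFD cells with 22 UMIs of the enzymes. In Lyz1-high cells of that depth the sum was 324 CPM (302 to 347) in 215 CD cells and 256 CPM (235 to 278) in 209 HFD cells. In Lyz1-high cells the intervals of the diets overlapped between 3000 and 8000 UMIs and did not at 8000 or more.

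**Figure D4:**
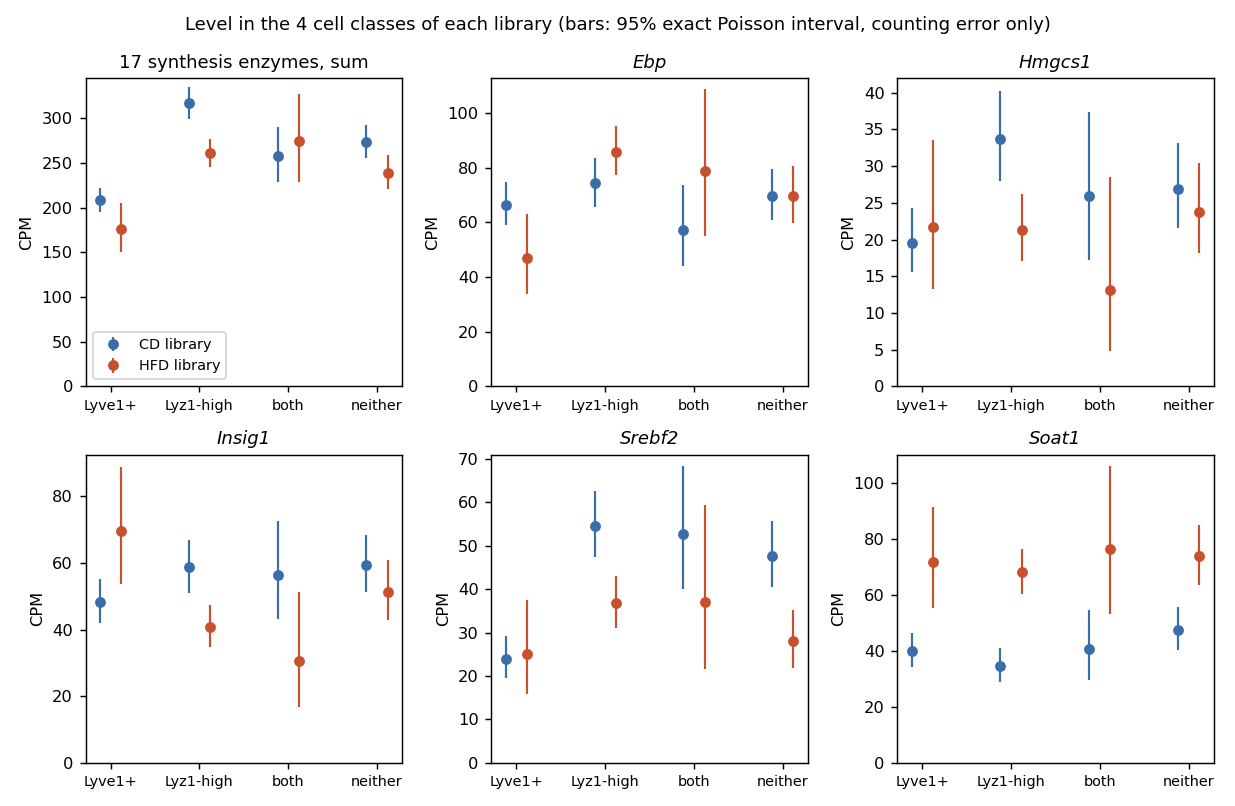
Level in CPM of the summed 17 synthesis enzymes and of *Ebp*, *Hmgcs1*, *Insig1*, *Srebf2* and *Soat1* in cells of the Lyve1+ gate, the Lyz1-high gate, both gates and neither gate, for the CD and HFD libraries; bars are 95% exact Poisson intervals for counting error and axes start at 0. *Soat1* in HFD lies above *Soat1* in CD in all 4 classes, and the enzyme sum of CD is highest in Lyz1-high cells at 317 CPM.

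The 760 CD and 988 HFD cells of neither gate include many with few UMIs. Their enzyme sum was 274 CPM in CD and 239 CPM in HFD, a ratio of -0.20 (-0.35 to -0.05), with *Idi1* at 21.3 and 9.72 CPM (-1.13, -1.86 to -0.46), *Sqle* at 9.28 and 2.33 CPM (-1.99, -3.55 to -0.70) and *Srebf2* at 47.6 and 28 CPM (-0.77, -1.19 to -0.35). *Insig1* was at 59.4 and 51.3 CPM there (-0.21, -0.54 to 0.12). The 123 CD and 54 HFD cells that met both gates, among which doublets may fall, had an enzyme sum of 258 and 275 CPM (0.09, -0.22 to 0.40).

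Other genes of sterol handling were read from a list of 17, of which 16 had at least 20 UMIs over all cells, with 1 higher after HFD by 1.5-fold, 2 lower and a median log2 ratio of -0.01. That is 6.25% higher and 12.5% lower, near the 6.28% and 11.9% of all 11170 genes with as many UMIs. The same shares of all genes stand beside the counts over all cells in the lists below. *Ch25h*, which makes an oxysterol, had 30 UMIs in CD and 6 in HFD (-1.72), of which 0 were in Lyz1-high cells, and its ratio was -0.87 (-4.02 to 1.21) in Lyve1+ cells and -1.37 (-3.44 to 0.32) in cells of neither gate. *Acat1*, a thiolase of mitochondria, was at 72.6 and 41.1 CPM (-0.82, -1.01 to -0.64). Its ratio was -0.55 (-0.96 to -0.16) in Lyve1+ cells, -0.63 (-0.98 to -0.29) in Lyz1-high cells and -0.57 (-0.88 to -0.27) in cells of neither gate. The gene that was higher was *Por*, which passes electrons to the P450 enzymes of the path, at 28.4 and 43.4 CPM (0.61, 0.39 to 0.83). The ratio of *Por* was 0.92 (0.40 to 1.42) in Lyve1+ cells, 0.18 (-0.20 to 0.57) in Lyz1-high cells and 1.06 (0.68 to 1.45) in cells of neither gate. Of 12 fatty acid genes that SREBPs also drive, 10 could be read, with 0 higher, 3 lower and a median of -0.28. They were *Me1*, which supplies NADPH, with 21 and 2 UMIs (-2.79), *Scd1*, the desaturase, at 18.0 and 9.77 CPM (-0.88, -1.27 to -0.50; -0.76, -1.68 to 0.04, in Lyve1+ and -0.28, -1.10 to 0.55, in Lyz1-high cells), and *Fasn*, fatty acid synthase, at 8.30 and 5.07 CPM (-0.71, -1.27 to -0.18). In Lyve1+ cells *Fasn* had 31 UMIs in CD and 0 in HFD. Of 8 genes of LXR and cholesterol efflux, 2 were higher and 1 lower over all cells, with a median of -0.05. In Lyve1+ cells 3 were higher (*Nr1h3*, *Abca1* and *Abcg1*), beside 13% of all genes, and 0 lower, beside 11.6%. There *Nr1h3* had 21 UMIs in CD and 9 in HFD, and the interval of its ratio held 0 (-0.31 to 2.19). At a minimum of 50 UMIs *Nr1h3* was not counted, and 2 were higher. *Abca1*, the exporter to apolipoprotein A-I, was at 0.02 (-0.09 to 0.14) over all cells, at 0.70 (0.51 to 0.89) in Lyve1+ cells, at 0.23 (-0.12 to 0.58) in Lyz1-high cells and at 0.66 (0.47 to 0.86) in cells of neither gate. *Abcg1*, the exporter to HDL and a target of LXR, was at 17.1 CPM in CD and 52.9 CPM in HFD (1.63, 1.39 to 1.88), *Nr1h3*, which codes for LXR alpha, at 4.07 and 7.42 CPM (0.87, 0.30 to 1.44), and *Mylip*, an LXR target that marks lipoprotein receptors for breakdown, at 22.8 and 15.1 CPM (-0.60, -0.91 to -0.28). Within the gates *Mylip* had ratios of 0.04 in Lyve1+ and 0.46 in Lyz1-high cells, and *Abcg1* ratios of 1.65 and 1.23.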

How the data were processed

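ATMs of 2 libraries were analysed, CD and HFD, each from 3 pooled mice. From 10x 3′ V2 libraries the authors deposited raw UMI counts for every gene in every barcode, as Cell Ranger 3.0.2 wrote them with mm10 and Ensembl release 93. Here, in Python 3.11.15 (numpy 2.4.6, scipy 1.17.1, pandas 2.3.3), counts were summed over cells that passed the filters and gates above and divided by all UMIs of those cells. Levels have exact Poisson and ratios exact conditional binomial intervals (95%). The ratio intervals were run on simulated Poisson counts, the model they assume. That run checks the code and does not cover UMIs that cluster in single cells. Differences of 2 log2 ratios have normal intervals from the UMI counts. Doublets were not called. The members, the gates and the lists of other genes were chosen with earlier results of these data known. All members were described, and at most 3 genes of each other list, those with the largest ratios over all cells among genes of at least 20 UMIs. *Abca1* was given besides these, outside that rule, because the study deals with it. Gene positions were read from GENCODE (GRCm38), and *Faxdc2* of the list of sterol genes had no row. One other gene of that list is not reported here and was left out of its counts. Cells of 3000 to 8000 UMIs, cells with no *Hspa1a* UMI and the sum without *Ebp* were added as alternatives after seeing the data.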

Additional observations from a re-analysis of the deposited data

Results flagged for a closer look

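*Insig1* had a log2 ratio of HFD over CD that was 1.05 higher in Lyve1+ than in Lyz1-high cells, which is the same as a ratio of Lyve1+ over Lyz1-high cells that was 1.05 lower in CD than in HFD (-1.05). It was picked out because its ratios in the 2 groups had opposite signs, each with an interval for counting error that left out 0, and whether the difference exceeds that between mice was not tested.

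*Npc2* was picked out for the same reason, with a log2 ratio of Lyve1+ over Lyz1-high cells that was 0.23 higher in CD than in HFD.

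*Soat1* was also higher after HFD in cells that the main comparisons did not use, those over the limit of 10% mitochondrial UMIs. There it was at 45.0 CPM (101 UMIs) in 2043 CD cells and at 73.9 CPM (71 UMIs) in 1120 HFD cells, a log2 ratio of 0.72 (0.26 to 1.17), at a median of 896 and 739 UMIs per cell. Part of these cells entered the alternative with a mitochondrial limit of 20%. They come from the same 2 libraries and are no replicate.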

How the results depend on the processing

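No paired analysis was possible because each diet had 1 library, and for the same reason no replicate could be left out. Values are log2 ratios, and the cause of each shift was not tested. For the sum of 28 members over all cells, HFD over CD was -0.026 with each cell weighing the same, 0.10 in cells of 3000 to 8000 UMIs and 0.077 in cells with no *Hspa1a* UMI. In Lyve1+ cells it was 0.11 with at least 2 *Lyve1* UMIs and 0.15 without *Npc2*, and in Lyz1-high cells 0.084 at 3000 to 8000 UMIs, 0.11 with no *Hspa1a* UMI and -0.16 without *Npc2*. For the 17 enzymes, HFD over CD in all cells reversed to 0.10 at 3000 to 8000 UMIs and was -0.19 without *Ebp*. In Lyve1+ cells it was 0.046 with 2 *Lyve1* UMIs and -0.73 with no *Hspa1a* UMI, and in Lyz1-high cells -0.14 at 3000 to 8000 UMIs, -0.11 with no *Hspa1a* UMI and -0.47 without *Ebp*. For Lyve1+ over Lyz1-high cells in CD, the sum of members was -0.20 under median ratio scaling and -0.41 without *Npc2*, and the enzymes were -0.47 with cells of both gates counted in both and -0.77 without *Ebp*. In HFD, the sum of members was -0.31 under median ratio scaling, -0.24 with cells weighing the same, -0.29 with no *Hspa1a* UMI and 0.015 (reversed) with 2 *Lyve1* UMIs, and the enzymes were -0.30 with 2 *Lyve1* UMIs and -1.15 with no *Hspa1a* UMI. Single members were followed only in the 41 ratios whose main interval left out 0, so the counts here do not cover the other ratios. Of 577 alternative values for the 41, 554 stayed within the main interval, 17 moved outside it with the same sign and 6 reversed: *Hmgcs1*, HFD over CD, in all cells of 3000 to 8000 UMIs (0.13), *Insig1*, HFD over CD, with no *Hspa1a* UMI in all cells (0.070) and in Lyz1-high cells (0.14), and *Npc2*, Lyve1+ over Lyz1-high, in CD under median ratio scaling (-0.0083) and with no *Hspa1a* UMI (-0.013), and in HFD with 2 *Lyve1* UMIs (0.022).

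Counts of members past 1.5-fold, HFD over CD, went from 1 higher to between 1 and 2 and from 3 lower to between 2 and 5 over all cells, from 4 to between 1 and 5 and from 5 to between 2 and 7 in Lyve1+ cells, and from 1 to between 1 and 3 and from 6 to between 2 and 10 in Lyz1-high cells. For Lyve1+ over Lyz1-high cells they went from 3 higher to between 0 and 3 and from 13 lower to between 9 and 14 in CD, and from 2 to between 0 and 4 and from 6 to between 4 and 9 in HFD. The share of all genes past 1.5-fold is given only for the main setting and a minimum of 50 UMIs, so the ranges cannot be read against it. With 50 UMIs, HFD over CD, 4.7% of all genes were higher and 8.94% lower over all cells. The shares were 9.92% and 8.37% in Lyve1+ cells, and 5.78% and 5.17% in Lyz1-high cells.

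Of the 2 gates, depth limits the Lyve1+ cells of HFD more, where 3 UMIs of a gene make 3.26 CPM. *Idi1*, with 6 UMIs there, had an interval of HFD over CD from -1.61 to 1.24.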
